A study of Mus musculus with 18 samples.

Results

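The transcripts described here are 93 antisense RNAs, out of 4631 rows that the small RNA count table gives the type antisense and out of 203513 rows in all. They were chosen by their measured counts, as antisense rows that reached 5 counts in at least 6 of the 18 libraries. Of 121 such rows, 28 were set aside because their names begin with Rian, Meg3, Mirg, Snhg or Mir. The 93 rows belong to 84 gene names, and 25 of them reached 5 counts in all 18 libraries while 11 did so in exactly 6. A row had to be high enough in 6 libraries, which the libraries of WT glia can supply, so the counts and medians over the 93 rows are given below as descriptions of these rows. Each of the 93 has its position in GRCm39 from GENCODE vM39.

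Small RNA was sequenced from cell fractions of whole mouse brain at 10 months of age, untreated, from wild-type mice (WT) and mice homozygous for Atxn2-CAG100-KIN (KIN), a model of spinocerebellar ataxia type 2 in which an expanded CAG repeat is carried in the endogenous Atxn2 gene and so in all cell types. Magnetic beads against CD11b took out microglia, beads against the astrocyte antigen ACSA-2 then took out astrocytes, and neurons were what remained in the flow-through after other cells had been depleted. Each of the 6 groups (astrocytes, microglia or neurons, WT or KIN) held 3 libraries, with between 1211118 and 4316748 counts per library, and the KIN effect was asked within each fraction. Nothing in the labels says whether libraries with the same replicate number came from the same brain.

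An antisense RNA is transcribed from the strand opposite another gene, often a protein-coding one. Some antisense RNAs act on the chromatin of the locus they come from, others cover the opposite mRNA, and others again mainly carry a small RNA that is cut out of them. For most of them, and for nearly all that carry a provisional Gm or Rik name, no function is known. The libraries here hold short RNA, so a count stands for a short fragment and not for a whole molecule. The fragments were counted without regard to strand, so that where the exons of an antisense transcript cover exons of the opposite gene the reads of both cannot be told apart.

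By name, 57 of the 93 were Gm transcripts and 24 Rik transcripts, 7 were named as opposite-strand or overlapping transcripts (os, ot) and 5 had other names. In the annotation, exons of 53 members overlapped exons of a protein-coding gene on the other strand. A further 22 overlapped such a gene only outside its exons, and 18 overlapped none. The transcripts had a median length of 2090 bases (273 to 93092), 21 of them with 1 exon and 40 with 2, and the exons of 15 overlapped an annotated small RNA gene. Counts summed over the 18 libraries ran from 49 to 85787 with a median of 179. The members just inside the threshold were Gm16892-201, Gm13075-202 and Gm15541-201, with 49, 59 and 62 counts in all. Just outside it, among 15 rows that reached 5 counts in exactly 5 libraries, stood Gm15614-201, Gm37305-201 and Gm10125-201 with 88, 65 and 64 counts.

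Several members contain a short stretch that is itself a small RNA or that another row also holds, and these stretches are shown because their reads cannot be assigned to the antisense transcript alone (positions in GRCm39, sequences 5′ to 3′ on the strand of the antisense transcript). Snord60, a C/D box snoRNA of the kind that guides methylation of ribosomal RNA, lies at chr17:24747450-24747527 on the plus strand inside Rab26os. Rnu4atac, the U4atac RNA of the minor spliceosome, lies at chr1:118386871-118386995 on the minus strand inside 2900060B14Rik. Gm15564-202 holds, at its bases 215 to 286, a stretch of 72 bases that the coding transcript Lars2-201 shares. The mature miRNA miR-223-3p comes from the Mir223 hairpin in F630028O10Rik, with its seed (bases 2 to 8) in capitals. The last line is a stretch of 60 bases, bases 685 to 744 of Gm47578-201, that Gm48765-201 also contains.
Snord60: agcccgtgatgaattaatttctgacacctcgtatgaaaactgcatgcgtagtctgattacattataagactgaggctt
Rnu4atac: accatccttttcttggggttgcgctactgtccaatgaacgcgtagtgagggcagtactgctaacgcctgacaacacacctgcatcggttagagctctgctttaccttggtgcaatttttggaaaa
Gm15564 and Lars2: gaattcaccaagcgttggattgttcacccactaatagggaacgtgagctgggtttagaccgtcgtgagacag
miR-223-3p: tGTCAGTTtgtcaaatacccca
Gm47578 and Gm48765: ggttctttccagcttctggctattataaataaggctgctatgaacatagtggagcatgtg

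Together the 93 members took 0.444% to 0.905% of the counts of a library, and 84 to 93 of them had at least 1 count in each library. Most of this came from 5 rows of 4 genes (B930036N10Rik-201, B930036N10Rik-202, BC018473-204, Rab26os-201 and Gm15564-202), which held 64.2% to 90.0% of the members' counts in a library. The unit of level is CPM, the usual depth-scaled count, here with TMM factors over all 18 libraries. Per kilobase of transcript, the 5 highest mean levels were 1152 CPM per kb for B930036N10Rik-201, 1129 for Rab26os-201, 1006 for Gm15564-202, 427 for B930036N10Rik-202 and 253 for BC018473-204. Among these, BC018473-204 held no annotated small RNA in its exons and overlapped no coding gene on the other strand.

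B930036N10Rik runs opposite Alyref2, a gene of the ALYREF family of mRNA export adaptors, whose exons cover 634 of its bases, so its level cannot be read as that of the antisense transcript alone. Summed over 3 libraries each, Alyref2 had 3, 2 and 1 counts of its own in WT astrocytes, microglia and neurons, and 1, 4 and 4 in KIN. Its part in the B930036N10Rik rows was not tested. In WT the level of B930036N10Rik-201 was 1470.0, 1423 and 1398 CPM in astrocytes, 2129, 2022 and 1994 in microglia and 506, 1082 and 1039 in neurons (replicates 1 to 3). The microglial values stood above all astrocyte values, and the lowest neuronal value was that of the library with the fewest counts. The rows B930036N10Rik-201 and B930036N10Rik-202 held 85770 and 85787 counts over all libraries, and since the second transcript contains the whole of the first, their separate counts are uncertain.

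Rab26os (chr17:24747205-24747726, plus strand) lies opposite Rab26, a small GTPase of secretory vesicles, outside its exons. Its log2 level followed the Snord60 row with a Pearson correlation of 0.992 over the 18 libraries, which, like those below, describes rows that share sequence and libraries. Gm15564-202 (chr16:35787121-35803636, minus strand), which overlaps Parp9 and Kpna1 on the other strand outside their exons, followed the row of Lars2-201, the transcript of a mitochondrial leucyl-tRNA synthetase, with a correlation of 0.990, and the 72 shared bases were identical at 71 positions (98.6%). The stretch reads like 28S ribosomal RNA, which was not checked against a ribosomal sequence here. F630028O10Rik (chrX:95283409-95287252, plus strand) now carries the name Mir223hg in the annotation, and its row F630028O10Rik-201 followed mature miR-223-3p with a correlation of 0.983 and the Mir223 hairpin row with 0.987. The levels of these pairs ran together through WT and KIN libraries alike, as the plot of antisense rows against the rows that share their sequence shows.

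**Figure D1:**
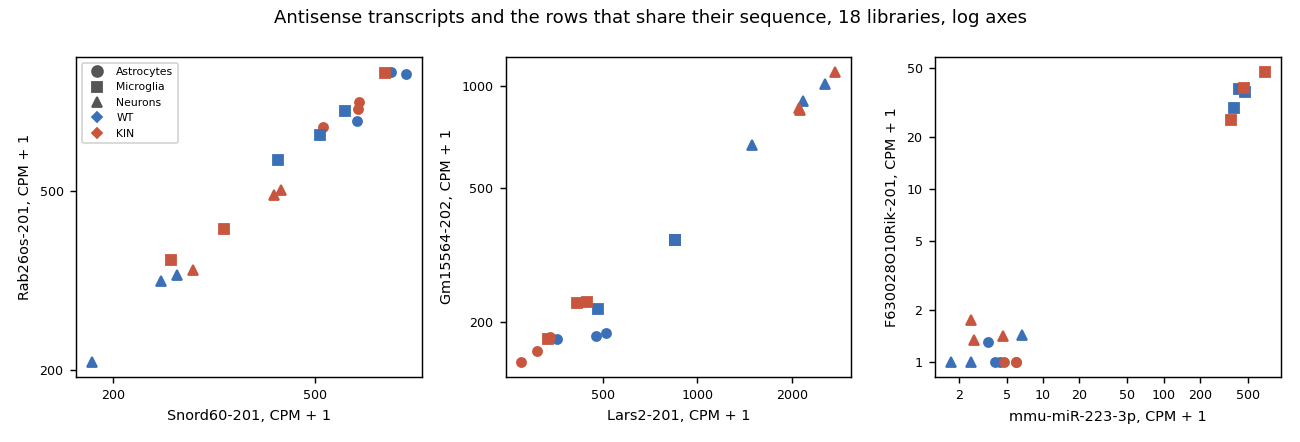
Level of 3 antisense transcripts (vertical axes, CPM + 1, log scale) against the row that shares their sequence (horizontal axes, CPM + 1, log scale) in the 18 libraries; circles are astrocytes, squares microglia and triangles neurons, blue WT and red KIN. In each panel the points rise together, with correlations on the log2 scale of 0.992, 0.990 and 0.983 from left to right, the last of them between the microglia and all other libraries.

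Some facts of the libraries move with the groups and are given here once. The number of rows with at least 1 count was 27657 to 32839 in WT and 21874 to 23544 in KIN astrocytes, and 17884 to 29541 in WT and 13941 to 20324 in KIN microglia, with WT replicate 2 the lowest WT library of both fractions. Summed coding markers of astrocytes (5 of 5 with counts: Aqp4, Gfap, Slc1a2, Slc1a3, Aldh1l1) stood at 180.4 to 200.7 CPM in WT and 61.6 to 80.3 in KIN astrocytes, and those of microglia (5 of 5: Aif1, Tmem119, Cx3cr1, P2ry12, Csf1r) at 57.9 to 84.4 in WT and 26.7 to 37.5 in KIN microglia, on library totals alone. The miRNA lists did not follow the coding lists. The 3 oligodendrocyte miRNAs summed to 1770 to 3035 CPM in WT and 3351 to 5112 in KIN astrocytes, while the 4 coding oligodendrocyte markers summed to 20.3 to 22.9 and 11.1 to 12.5. The 2 astrocyte miRNAs summed to 5835 to 9496 CPM in WT and 6926 to 7335 in KIN astrocytes, and the 2 myeloid miRNAs to 2642 to 3160 in WT and 2897 to 5699 in KIN microglia. The neuronal fraction held 19.4 to 29.7 CPM of coding neuronal markers in WT against 6.53 to 22.6 in WT astrocytes, but its neuronal miRNAs summed to 48.7 to 228 CPM against 1354 to 3150 in WT astrocytes, so the label neurons was not borne out by these miRNAs. Red blood cell miRNAs reached 62.8 to 280.6 CPM in WT neurons and 19.1 to 32.9 in WT astrocytes. Coding endothelial markers (Cldn5, Pecam1) summed to 55.6 to 70.2 CPM in WT neurons, 23.1 to 41.3 in WT astrocytes and 29.7 to 123.5 in WT microglia. Endothelial miRNAs went the other way, with 5.78 to 29.6 CPM in WT neurons and 346 to 563 in WT astrocytes. Fewer cells of a type and less RNA per cell cannot be told apart in such bulk libraries, and the part of these differences in the results below was not tested.

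In KIN astrocytes, 16 members fell and 0 rose (2 of the members above 0 had an unadjusted p of at most 0.05, and DESeq2 also called 0) among the 86 that could be tested (2 or more of the 6 libraries with at least 5 counts). Calls are from edgeR's quasi-likelihood test at an adjusted p of at most 0.05 over all rows tested and a log2 fold change beyond 1 in either direction. Of all 5694 rows tested in this fraction 6.39% were called lower and 1.79% higher, and of the members 18.6% were called lower. The median log2 fold change of the members was -0.16 beside the -0.19 of all rows, but it was -0.54 beside -0.32 without KIN replicate 1, and -0.36 beside -0.17 without WT replicate 2. The values of WT and KIN did not overlap for 24 members that were lower and 1 that was higher in KIN, where the background was 24.3% and 10.9% of rows. The 16 lower members had log2 fold changes from -2.90 to -1.64 with a median of -2.21 and adjusted p-values (edgeR, Benjamini-Hochberg) of 0.0105 to 0.0458. Some of the 16, named below, met the count threshold only with the WT astrocyte libraries, so the share of 18.6% is a description.

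The count of lower members changed with single libraries. Leaving out WT replicate 2 gave 21, leaving out WT replicate 1 gave 1, and leaving out WT replicate 3 or any KIN replicate gave 0. Over all rows the lower calls were 1241 of 5363 without WT replicate 2 and 51 of 4923 without WT replicate 1. They were 21 of 4941 without WT replicate 3, and 33 of 5489, 27 of 5592 and 21 of 5544 without KIN replicates 1, 2 and 3. The count of members thus moved with that of all rows. In these fits the members tested ranged from 83 to 86.

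Gm47578-201 (chr10:99555005-99727020, plus strand, opposite the citrate synthase-like gene Csl outside its exons) was the most abundant of them. It stood at 289, 68.0 and 237 CPM in WT and 33.4, 30.8 and 34.2 CPM in KIN astrocytes. Its log2 fold change was -2.51 ± 0.43 (SE, adjusted p 0.0105 in edgeR's quasi-likelihood test). WT replicate 2 was far below the other WT libraries, but all 3 WT values lay above all 3 KIN values. In microglia it stood at 122, 24.4 and 111 CPM in WT and 11.7, 22.9 and 21.5 in KIN, again without overlap and again with WT replicate 2 the lowest of the WT libraries, and in neurons it stood at 36.2, 34.9 and 47.8 in WT and 31.0, 38.3 and 39.2 in KIN, where the groups overlapped.

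Gm48765-201, opposite the mitochondrial phenylalanyl-tRNA synthetase gene Fars2, went from 70.7 ± 38.6 to 13.5 ± 1.97 CPM (SD, n = 3) (-2.30 ± 0.43 on the log2 scale, SE, adjusted p 0.015 in edgeR). Gm47106-201, opposite the mitochondrial ribosomal protein gene Mrpl3, went from 21.4 ± 8.71 to 5.22 ± 0.835 CPM (-1.94). 4933427J07Rik-201, which overlaps no coding gene on the other strand, went from 12.0 ± 8.07 to 1.46 ± 0.742 CPM (-2.90). All 3 rows share sequence with Gm47578-201, at 99.1% identity over 2313 bases, 99.4% over 808 and 96.8% over 800. The 3 stretches lie in different parts of Gm47578-201, so a read from one of them could have been placed on Gm47578-201 or on the row that shares it. The log2 levels of these rows and of Gm4117-201 correlated with each other at 0.868 to 0.974 over the 18 libraries, and the rows cannot be taken as separate observations.

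Of the 16 members that fell, 8 shared a stretch of at least 100 bases at 95% identity or more with another of the 16 that belongs to a different gene. Gm45792-201 (opposite Acsm1, an acyl-CoA synthetase) had 17.4, 7.31 and 18.1 CPM in WT and 3.20, 3.73 and 3.16 in KIN, and 1700082M22Rik-201 (opposite no coding gene) had 6.83, 5.41 and 6.56 and 2.03, 1.87 and 1.72. The WT values of 1700082M22Rik-201 lay within a narrow range, WT replicate 2 included, and its log2 fold change was -1.64 ± 0.37 (SE). Gm26691-201 (opposite Cxxc4, an inhibitor of Wnt signaling) had a log2 fold change of -2.44 ± 0.55 and Gm28370-201 (opposite Synj2bp, a protein of the outer mitochondrial membrane) of -1.97 ± 0.47. Exons of Synj2bp cover 3374 bases of Gm28370-201, almost its whole length, so that reads of Synj2bp cannot be separated from it. The other members called lower were Gm42681-201, 4930511M06Rik-203, Gm10687-201, Gm50240-201, D430036J16Rik-204 and Gm13075-202. Gm13075-202 had 6, 6 and 10 counts in WT and 2, 1 and 1 in KIN, so that KIN was lower by at least 2.48-fold (3 counts per library taken as the floor). Gm26691-201, Gm28370-201, Gm42681-201, Gm10687-201, Gm50240-201, D430036J16Rik-204 and Gm13075-202 met the count threshold only with the 3 WT astrocyte libraries. They are members only through the group where they were higher, so their calls are descriptions and no support. Among them Gm28370-201, Gm10687-201, Gm50240-201 and Gm13075-202 reached 5 counts in none of the KIN astrocyte libraries.

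Most of the members called lower hold sequence that recurs in many copies in the genome. The repeat share of a transcript was taken as the percentage of the 25-base words of a transcript that occur at least 10 times in the 21 chromosomes of GRCm39, both strands included. It was at least 50% for 6 members, between 10% and 50% for 31, and under 10% for 56. In astrocytes, 15 of the 36 tested members with a repeat share of at least 10% fell in KIN and their median log2 fold change was -1.75, while 1 of the 50 with a lower share fell (Gm50240-201, chosen for mention after its value was seen) and their median was 0.10. The repeat share was 98.3% for Gm47578-201, 99.5% for Gm48765-201, 97% for Gm47106-201 and 60.6% for 4933427J07Rik-201. The split by repeat share was made after the values had been seen and has no test of its own.

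The same division was seen in other classes of long transcripts that met the same count threshold. Of the lincRNA rows tested in astrocytes, 19 of 94 with a repeat share of at least 10% were called lower against 3 of 112 with a lower share, with medians of -1.49 and 0.18. For processed pseudogenes the calls were 38 of 58 against 0 of 24, and for protein-coding rows 18 of 76 against 49 of 894. Over all Ensembl rows tested they were 174 of 1324 (13.1%, median -1.01) against 153 of 3447 (4.44%, median -0.15). The difference between the groups of repeat share was thus also present outside antisense transcripts.

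**Figure D2:**
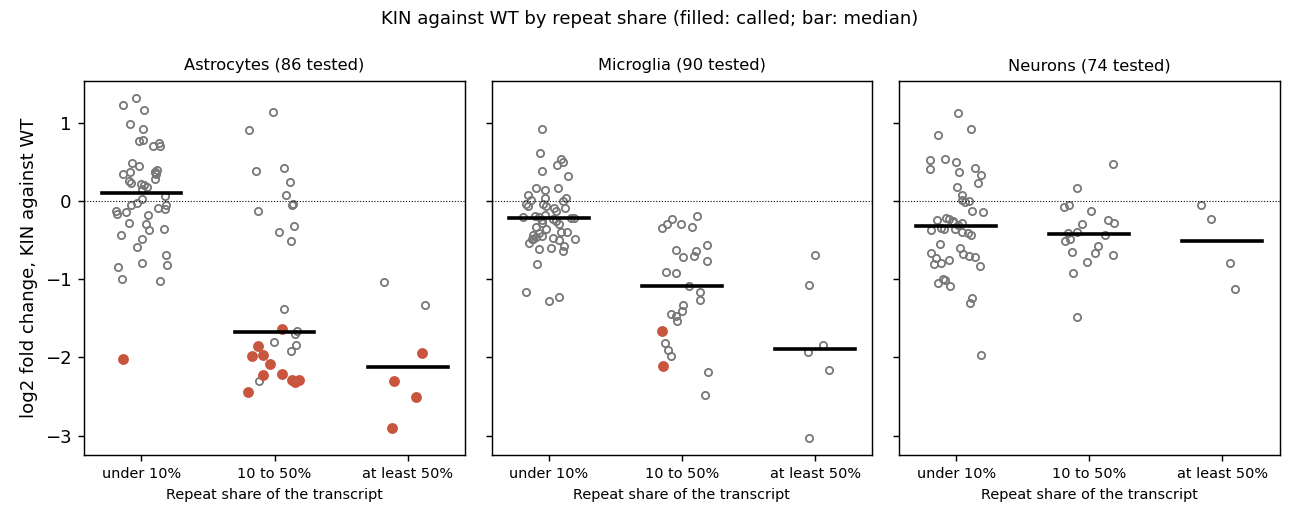
Log2 fold change of KIN against WT (vertical axis) of each tested member by the repeat share of its transcript (horizontal axis), for astrocytes, microglia and neurons; filled red points were called, open points were not, and bars are medians. In astrocytes the medians were 0.10, -1.68 and -2.12 from the lowest to the highest share, and in neurons they were -0.33, -0.42 and -0.51.

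In microglia, 2 of 90 tested members fell in KIN and 0 rose in edgeR (1 above 0 at an unadjusted p of at most 0.05, and 0 in DESeq2), where 2.94% of all 4940 rows tested were called lower and 1.42% higher. The members lay lower as a list, with 75 of 90 below 0 and a median log2 fold change of -0.44 beside -0.11 for all rows. Leaving out WT replicate 3, KIN replicate 1 or WT replicate 2 gave medians of -0.17, -0.30 and -0.69, beside 0.01, -0.10 and -0.18 for all rows. The other long classes past the same count threshold also lay lower than all rows. Their medians were -0.48 (lincRNA), -1.49 (processed pseudogenes) and -0.32 (protein-coding rows), so the shift was not particular to antisense transcripts. All 35 tested members with a repeat share of at least 10% were below 0 (median -1.17), as were 40 of the 55 with a lower share (median -0.22). Over all Ensembl rows tested 826 of 1090 and 1718 of 2989 were below 0, with medians of -0.77 and -0.11. At a share of at least 10% the medians were -1.29 for lincRNA, -1.86 for processed pseudogene and -0.96 for protein-coding rows. The division was thus also present outside antisense transcripts. The groups did not overlap for 11 members that were lower and 1 that was higher in KIN (background 14.4% and 11.6%). The count of lower calls was 15 without WT replicate 2, 1 without KIN replicate 1, and 0 without any other library. Among all rows, dropping WT replicate 2 raised the lower calls from 145 of 4940 to 624 of 4856. Dropping KIN replicate 1 gave 176 of 4913, and each of the remaining fits gave between 0 and 3. The rise to 15 members and the counts of 0 thus went along with the lower calls over all rows.

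The 2 members that fell in microglia had also fallen in astrocytes. E130307A14Rik-209 (chr10:39528277-39608002, minus strand) runs opposite Traf3ip2, an adaptor of interleukin-17 receptor signaling. It stood at 14.9, 5.14 and 13.4 CPM in WT and 2.33, 1.87 and 2.01 in KIN astrocytes, or -2.32 ± 0.47 on the log2 scale (SE, adjusted p 0.0173 in edgeR). In microglia it had 15, 7 and 16 counts in WT and 2, 3 and 3 in KIN, so that KIN was lower by at least 3.87-fold (adjusted p 0.0484 in edgeR). The groups did not overlap in either fraction. Without the WT astrocyte and WT microglia libraries together E130307A14Rik-209 would not have met the count threshold, so its fall in both fractions is a description.

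Gm4117-201 (chr13:89887579-89990492, plus strand) overlaps Vcan, the gene of the matrix proteoglycan versican, and Xrcc4, a factor of DNA end joining, outside their exons. It stood at 93.7, 31.1 and 84.9 CPM in WT and 17.7, 17.7 and 19.2 in KIN astrocytes, and at 53.1, 18.2 and 41.3 in WT and 8.50, 12.7 and 13.3 in KIN microglia. The log2 fold change was -1.85 ± 0.37 (SE, edgeR adjusted p 0.0173) in astrocytes and -1.66 ± 0.40 (edgeR adjusted p 0.0485) in microglia. WT replicate 2 was the lowest WT library in both fractions and still lay above the KIN libraries. Both microglial calls were lost with library totals in place of TMM factors and with a replicate block. The rows whose levels over the 18 libraries were most like that of Gm4117-201, out of 4528 compared, were AC139131.1-201, Gm48401-201 and D10Wsu102e-201 (Pearson correlations of log2 CPM, between rows that share libraries and their depth, of 0.982, 0.979 and 0.969). For E130307A14Rik-209 they were Gm45038-201, Gm48501-201 and Zfp697-203 (0.954, 0.952 and 0.944).

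**Figure D3:**
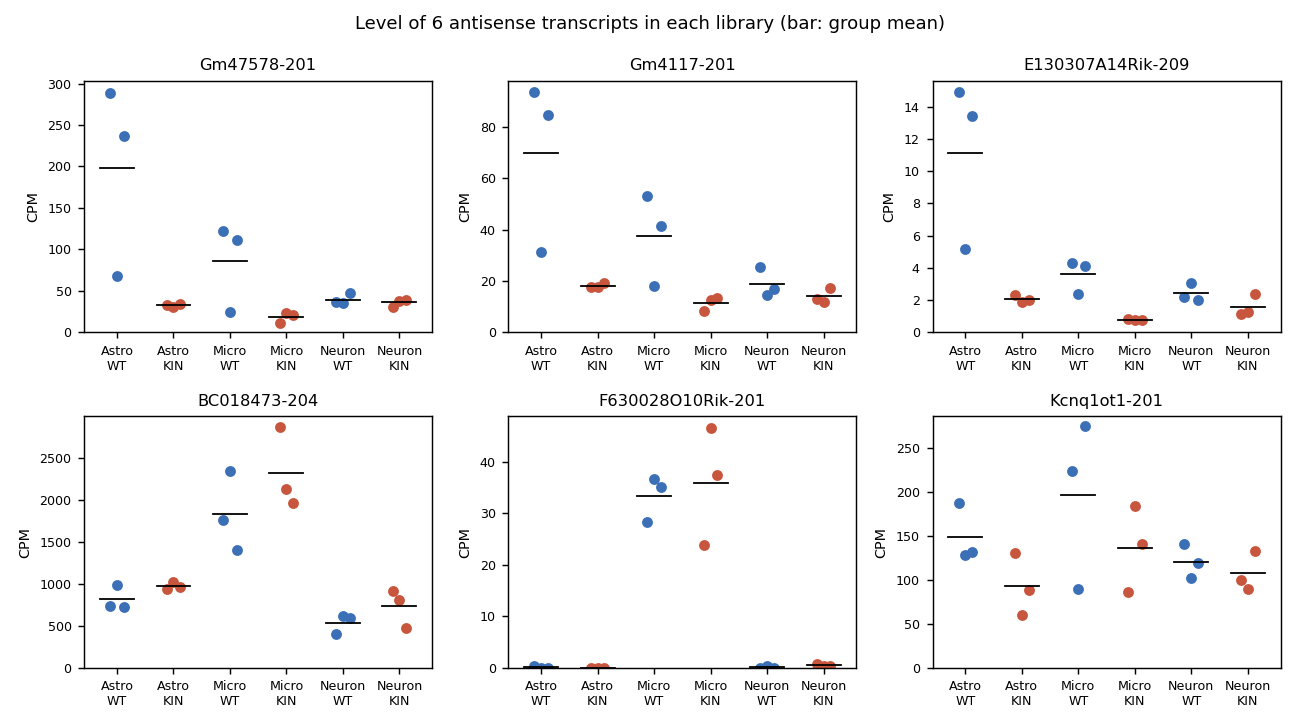
Level of 6 antisense transcripts in CPM (vertical axes, from 0) in the 3 libraries of each group (horizontal axes); blue points are WT, red points KIN, and bars are group means. In the upper row WT astrocytes and microglia lie above KIN without overlap, with WT replicate 2 (the middle point) lowest, and in the lower row F630028O10Rik-201 stays under 1 CPM outside microglia.

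Of the 16 members that fell in KIN astrocytes, 15 could be tested in microglia, where all 15 were below 0 with a median log2 fold change of -1.82, and 10 in neurons, where 9 were below 0 with a median of -0.38. Whether the KIN effect differed between astrocytes and microglia was tested as an interaction over the 12 glial libraries. Of 92 members tested 0 were called in edgeR, where 0.312% of 7053 rows were, and 1 had an unadjusted p of at most 0.05 (DESeq2 was not run on the interaction). That member was 4930488L21Rik-201, opposite Gnao1, the alpha subunit of the neuronal G protein Go, with a log2 fold change of -0.99 ± 0.45 (SE) in astrocytes and 0.61 ± 0.42 in microglia.

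In neurons, 0 of 74 tested members were called in edgeR (background 0% in both directions, of 4535 rows), 4 had an unadjusted p of at most 0.05, and DESeq2 called 0 with 2 at that level. The median log2 fold change was -0.36 beside -0.11 for all rows. It was -0.32 for lincRNA, -0.47 for processed pseudogene and -0.26 for protein-coding rows past the same count threshold. The groups did not overlap for 9 lower and 4 higher members, where the background was 4.81% and 7.23%. The 3 members of lowest p were Gm4285-201 (opposite Tpt1, a translationally controlled tumor protein), 4930488L21Rik-201 and Gm45892-201 (opposite Bean1). Exons of Bean1 cover all 273 bases of Gm45892-201, so that reads of Bean1 cannot be separated from it. The log2 fold change in neurons was -1.23 for Bean1 and -1.25 for Gm45892-201. Gm4285-201 stood at 7.25, 7.07 and 4.06 CPM in WT and 0.757, 1.65 and 2.37 in KIN neurons, without overlap, and its log2 fold change was -1.97 ± 0.56 (SE, edgeR adjusted p 0.917). The neuronal libraries were the shallowest, with 1211118 to 2427384 counts.

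The members with the most counts were not called between genotypes. B930036N10Rik-201 had log2 fold changes of 0.06 ± 0.09 (astrocytes, SE), 0.01 ± 0.17 (microglia) and 0.50 ± 0.30 (neurons). BC018473-204 had 0.34, 0.39 and 0.33, Rab26os-201 -0.10, -0.21 and 0.53, and Gm15564-202 -0.05, -0.50 and 0.00. Also not called in any fraction were 9430065F17Rik-203 and 9430065F17Rik-204 (opposite the zinc finger gene Zfp748), at 125 ± 40.0 and 132 ± 39.5 CPM in WT astrocytes (SD, n = 3) and Gm11131-201 (opposite H2-Q4, a gene of the major histocompatibility complex).

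Kcnq1ot1-201 (chr7:142757195-142850286, minus strand) was the only member on lists of noncoding RNAs with a known role, which named 32 genes of imprinting and X inactivation, of developmental transcription factor loci and of small RNA hosts. It is an imprinted RNA of 93092 bases that runs opposite the potassium channel gene Kcnq1 and silences neighboring genes on the chromosome it comes from. Its level was 187, 128 and 132 CPM in WT and 131, 59.7 and 88.1 in KIN astrocytes, 224, 89.3 and 275 and 86.2, 184 and 140.4 in microglia, and 141, 102 and 119 and 100.3, 89.7 and 132 in neurons. WT and KIN overlapped in each fraction, with log2 fold changes of -0.59 ± 0.28 (SE), -0.49 ± 0.41 and -0.26 ± 0.34. The order of its WT levels, microglia, astrocytes and neurons, was not resolved, since the libraries overlapped and no pair of WT fractions was called in edgeR. The other genes of these lists that the table types as antisense had at most 91 counts over all libraries.

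Between WT fractions, the transcripts over histone genes stood out with high levels in neurons. All 93 members were tested in 1 fit of the 9 WT libraries. The fractions were taken one after another from the same brains, and the labels do not say which libraries share a brain. In microglia against astrocytes 13 were called higher and 4 lower (background 9.3% and 15.6% of 7010 rows, edgeR), in neurons against astrocytes 14 and 10 (10.5% and 17.8%), and in neurons against microglia 9 and 7 (11.9% and 12.3%). The median log2 difference of the members was 0.54, 0.47 and -0.34 in these contrasts, beside -0.20, -0.36 and -0.07 for all rows. The median for neurons against microglia was 0.02 without WT microglia replicate 3, -0.13 without WT microglia replicate 1, -0.19 without WT neuron replicate 2 and -0.66 without WT microglia replicate 2, so its direction was not stable, and that for microglia against astrocytes was 0.25 without WT microglia replicate 3 and 0.89 without WT microglia replicate 2. The 3 contrasts share libraries and are not independent. With the replicate number as a block the calls were 16 higher and 7 lower, 17 and 14, and 11 and 10 in the same order. Both F630028O10Rik rows and 2810457G06Rik-201 reached 5 counts in the 6 microglia libraries and in no other, so they are members only through microglia, and they count among the 13 called higher and the 7 called lower. The 4 called lower in microglia than in astrocytes were Gm42681-201, 1700082M22Rik-201, Gm26691-201 and E130307A14Rik-209. Of these, Gm42681-201 and Gm26691-201 met the count threshold only with the WT astrocyte libraries, so their calls are descriptions and no support. The number of members called higher in microglia than in astrocytes was 8 without WT astrocyte replicate 3 or WT microglia replicate 3 and 20 without WT microglia replicate 2. The number called lower there was 0 without WT astrocyte replicate 1 or 3, or without WT microglia replicate 2 or 3, 1 without WT neuron replicate 3 and 2 without WT microglia replicate 1. In neurons against astrocytes, leaving out WT astrocyte replicate 1 or 3 gave 2 lower calls, leaving out WT neuron replicate 3 gave 4, and leaving out WT astrocyte replicates 1 and 3 in turn gave 8 and 6 higher calls. In neurons against microglia, the lower calls were 4 without WT neuron replicate 1 and 12 without WT microglia replicate 2.

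The 2 rows of F630028O10Rik, the host of Mir223, a miRNA of myeloid cells, are described without a test, since microglia alone brought them over the count threshold. F630028O10Rik-201 had 99, 107 and 137 counts in WT microglia and 59, 179 and 141 in KIN microglia, but 1, 0 and 0 in WT astrocytes and 0, 1 and 0 in WT neurons. The 3 WT microglia libraries stood at 28.3, 36.7 and 35.1 CPM, at least 37.4-fold above astrocytes and at least 19.9-fold above neurons (3 counts per library as the floor). F630028O10Rik-202 was at least 33.7-fold and at least 18.0-fold higher. Mature miR-223-3p stood at 424 ± 45.3 CPM in WT microglia and 2.96 ± 0.476 in WT astrocytes (SD, n = 3).

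2810457G06Rik-201 (chr14:47121155-47122521, minus strand) is described in the same way. It covers exons of Samd4, which encodes the translational repressor Smaug. It had 32, 15 and 27 counts in WT microglia, 2, 1 and 2 in astrocytes and 0, 0 and 1 in neurons, and was at least 7.92-fold and at least 4.22-fold higher in microglia. BC018473-204 stood at 1757, 2350.2 and 1403 CPM in WT microglia against 736, 990.3 and 725 in astrocytes and 405, 619 and 588 in neurons, without overlap, with log2 differences of 1.23 ± 0.32 (SE) over astrocytes and -1.70 ± 0.33 for neurons against microglia. 2900060B14Rik-201, the transcript that holds Rnu4atac and lies opposite the microtubule protein gene Clasp1, stood at 123, 105 and 120.3 CPM in microglia and 31.3, 36.8 and 38.4 in astrocytes. Gm17202-201 (opposite Ephx4 and Lpcat2b) stood at 26.0, 27.8 and 20.8 and 5.27, 10.6 and 5.31. For both the microglial values lay clear of the astrocyte values, with log2 differences of 1.77 ± 0.39 and 1.85 ± 0.43 (SE).

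The 5 members with the largest differences in favor of neurons, against either glial fraction, came from loci of replication-dependent histone genes, which encode the core histones of the nucleosome. No other member overlapped a histone gene on the other strand. All 5 were called higher in WT neurons than in astrocytes and than in microglia. For Gm15444-201, Gm20633-201 and 4930558J22Rik-201 these calls are descriptions only, since the neuronal libraries brought them over the count threshold. Gm20628-201 (chr3:96174391-96177605, minus strand) covers exons of H3c13 and H2bc18 and stood at 87.7, 116 and 129 CPM in WT neurons, 1.55, 1.08 and 1.87 in astrocytes and 2.85, 6.18 and 5.13 in microglia, a log2 difference of 6.33 ± 0.50 (SE) over astrocytes and 4.62 ± 0.45 over microglia (edgeR adjusted p 8.04e-06 and 1.52e-05). 4930558J22Rik-201 (chr13:23939738-23941621, minus strand), opposite H4c2, stood at 24.6, 28.7 and 33.5, 1.86, 1.08 and 0.624 and 0.856, 1.37 and 1.28 CPM. The lowest neuronal library of each lay above every glial library.

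Gm20632-201 (chr3:96146709-96149135, plus strand), opposite H2ac19, and Gm20633-201 (chr3:96150866-96153696, minus strand), opposite H2ac18, sit side by side on opposite strands and share 1127 bases at 99.3% identity, so their counts are uncertain individually. They stood at 11.9 ± 0.421 and 10.4 ± 1.52 CPM in WT neurons (SD, n = 3), and Gm20633-201 was at least 11.7-fold higher than in astrocytes. Gm15444-201, opposite H2ac21, which shares 253 bases with both at 95.7% identity, stood at 6.52, 4.86 and 8.13 CPM in neurons and was at least 7.28-fold higher than in astrocytes, where each library had 1 count. Gm15444-201, Gm20633-201 and 4930558J22Rik-201 reached 5 counts in fewer than 6 glial libraries, so their place among the members rests on the neurons, while Gm20628-201 and Gm20632-201 met the rule without them. All 5 count among the 14 and the 9 members called higher in WT neurons above. Between KIN and WT neurons 0 of the 5 were called in edgeR or DESeq2 and 0 had an unadjusted p of at most 0.05, with a median log2 fold change of -0.23.

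**Figure D4:**
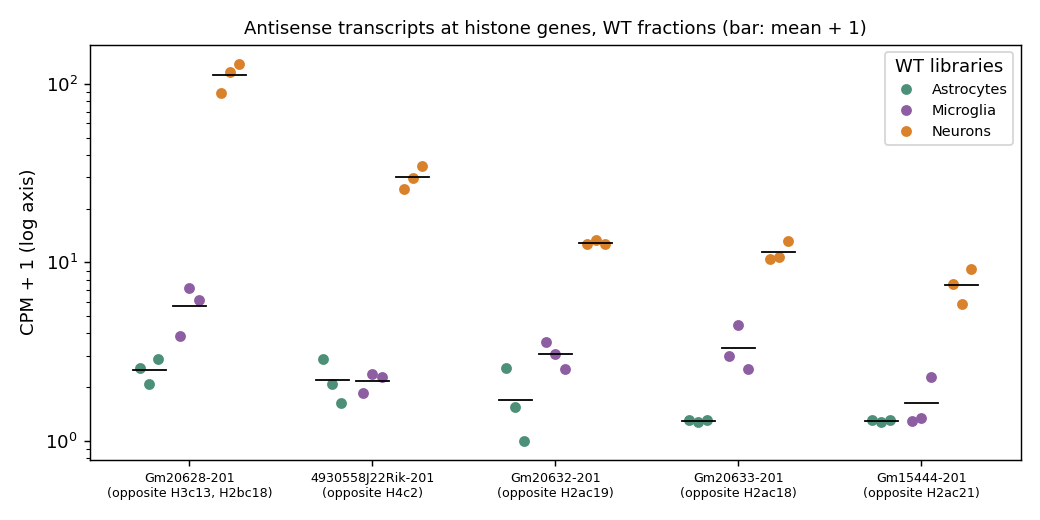
Level (vertical axis, CPM + 1, log scale) of the 5 antisense transcripts that overlap histone genes (horizontal axis) in the 9 WT libraries, 3 per fraction; bars are group means + 1. The 3 neuronal libraries lie above all glial libraries for each of the 5 transcripts.

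The histone genes on the other strand had few counts of their own, and these followed the same order. Summed per gene over the 3 WT libraries of astrocytes, microglia and neurons, H2bc18 had 2, 3 and 35 counts, H4c2 3, 5 and 55, H2ac18 4, 29 and 68, and H2ac19 2, 13 and 53. H3c13 had 0, 0 and 22, and H2ac21 0, 4 and 7. The antisense rows belong to the noncoding transcripts, onto which reads were placed before the coding ones, and their exons cover the histone exons in part, so a fragment of histone mRNA from the covered stretch cannot be told apart from an antisense fragment in these counts. Beside these values stand the red blood cell miRNAs and the coding endothelial markers of the neuronal fraction given above, and their part in the histone rows was not tested.

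Other members higher in neurons than in astrocytes included Gm15564-202, at 899, 669.6 and 1011 CPM in WT neurons against 185, 177 and 180.4 in astrocytes (2.40 ± 0.32, SE, edgeR adjusted p 1.14e-04). Lars2-201, which shares its 72 bases, stood at 2164, 1493 and 2541 and 513, 357 and 476 CPM. Gm4285-201 differed by 2.16, and Tpt1 on its other strand by 3.15, on the log2 scale. 4930488L21Rik-201, opposite Gnao1, stood at 25.4, 8.39 and 19.3 CPM in neurons and 6.21, 4.60 and 6.24 in astrocytes, without overlap.

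In the other direction Rab26os-201 was lower in WT neurons, at 207, 314 and 325 CPM against 917, 712 and 906 in astrocytes and 664, 752 and 585 in microglia, without overlap (-1.42 ± 0.30 and -1.17 ± 0.30, SE). Snord60, which lies within it, stood at 181, 247 and 266, 704, 602 and 752 and 510.2, 570.4 and 421 CPM. The other members called lower in neurons than in astrocytes included Gm48765-201 (-2.33 ± 0.63, SE), Gm47578-201 (-2.12 ± 0.56), E130307A14Rik-209 (-1.98 ± 0.53), Gm45792-201 (-1.80 ± 0.64) and Gm4117-201 (-1.71 ± 0.48). This contrast uses the same WT astrocyte libraries as the comparison of genotypes above, in which these rows were lower in KIN. D430036J16Rik-203 and D430036J16Rik-204 run opposite the serotonin receptor gene Htr1b, and Gm42681-201 opposite the tetraspanin gene Tspan2. Their neuronal counts were at the floor, which made D430036J16Rik-203 at least 2.17-fold, D430036J16Rik-204 at least 3.16-fold, Gm42681-201 at least 3.54-fold and 1700082M22Rik-201 at least 3.74-fold lower in neurons than in astrocytes. D430036J16Rik-203, D430036J16Rik-204 and Gm42681-201 met the count threshold only with the WT astrocyte libraries. Their values are thus descriptions without a test, although they count among the 10 members called lower.

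The protein-coding genes on the other strand were then followed, with their own counts summed per gene name. The members overlap 79 such genes, of which 21 (astrocytes), 21 (microglia) and 24 (neurons) could be tested between genotypes, and 0 were called in edgeR in any fraction, with 6, 4 and 3 at an unadjusted p of at most 0.05 (background 6.33% lower and 2.24% higher in astrocytes, 3.32% and 1.37% in microglia, 0% in neurons). Their median log2 fold changes were -0.21, -0.25 and -0.08, beside -0.27, -0.18 and -0.11 for all genes tested. Between WT fractions 29 could be tested. Of these, 5 were higher and 4 lower in microglia than in astrocytes (background 9.31% and 11.6%), 8 higher and 1 lower in neurons than in astrocytes (9.58% and 13.3%), and 10 higher and 2 lower in neurons than in microglia (10.3% and 11%). Vcan, with Gm4117-201 on its other strand, was higher in WT neurons than in astrocytes by 3.30 on the log2 scale while Gm4117-201 was lower there (-1.71). Vcan had only 20 and 4 counts in these groups, summed over 3 libraries each. The other genes called higher there were H3c13, H2bc18, H4c2, H2ac18, H2ac19, Tpt1 and Zfp608, and their members also had positive log2 differences. Glyctk, called lower there, lay opposite members with negative ones.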

How the data were processed

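The authors cut adapters, kept reads of at least 20 bases and mapped them by local Bowtie2 alignment, round after round, to miRNA, tRNA, piRNA, Ensembl noncoding and Ensembl cDNA sequences, each round taking the reads left by the one before. HTSeq counted them without strand and with no minimum mapping quality. Per the submitters' processing notes the tools were cutadapt 4.6, FastQC 0.11.9, MultiQC 1.23, Bowtie2 2.4.4, HTSeq 2.0.2 and DESeq2. The deposited table holds raw counts per transcript, which were used here. The 36 normalized per-library columns were not used, nor were the authors' columns of fold changes and p-values. The type antisense is the table's own. The kit carries UMIs, but whether reads were collapsed is not given in the sources used here, so floors cover counting error only.

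Rows with at least 5 counts in at least 2 libraries of a comparison were fitted with edgeR 4.0.16 in R 4.3.3 (TMM factors, quasi-likelihood test, Benjamini-Hochberg over all rows tested), within each fraction for KIN against WT, over the 9 WT libraries for fractions and over the 12 glial libraries for the interaction. DESeq2 1.42.0 served as an alternative, and the scripts were tested on simulated data. P-values measure the spread between these libraries. Shared sequence was found with BLAST 2.17.0, and repeat copies were counted over GRCm39, the assembly that the UCSC name mm39 stands for. Rows sharing sequence are uncertain individually. Some sequence is not reported here. Transcript positions and small RNA sequences came from GENCODE vM39 and GRCm39, and mature miRNA sequences from the deposited table.

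The members and lists were chosen with earlier results of these data known, and the split by repeat share after the values were seen. Named members were those called in both glial fractions, the 10 of lowest p in astrocytes and the 3 in neurons, the 10 highest mean levels, members on the role lists, and the 5 largest differences in each direction between WT fractions. For same-numbered libraries, deviations from group means had correlations of 0.02 to 0.37 between WT fractions. They were -0.25, -0.19 and -0.03 for KIN astrocytes and microglia, and -0.26 to 0.19 for KIN and WT of a fraction. Libraries of different numbers were not compared, so these values cannot show whether a number marks a brain. The study isolated the 3 fractions in turn from each brain, and the labels do not tie replicate numbers to brains.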

Additional observations from a re-analysis of the deposited data

How the results depend on the processing

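Counts of members depended most on which library was left out. Members lower in KIN astrocytes ran from 0 to 21 and in KIN microglia from 0 to 15 (higher from 0 to 1), beside 21 to 1241 and 0 to 624 lower calls over all rows. Those of high repeat share lower in astrocytes ran from 0 to 20. Counting words as repeated from 5 copies put 15 of 38 such members among the lower ones, and from 100 copies 13 of 29 (chosen after seeing the data). Between WT fractions the range was 8 to 20 higher and 0 to 6 lower for microglia against astrocytes, 6 to 15 and 2 to 13 for neurons against astrocytes, and 7 to 12 and 4 to 12 for neurons against microglia. Over all rows it was 371 to 779 and 710 to 1283, 459 to 786 and 737 to 1321, and 537 to 831 and 661 to 1017 in the same order. A fit with 1 library left out has fewer degrees of freedom.

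In 1 fit of all 18 libraries, 8 members were lower in astrocytes and 6 in microglia, beside 135 and 287 of all 8204 rows. Over the other settings the astrocyte count ran from 12 without the filter to 18 with a replicate block. The 2 lower members of microglia were 5 with DESeq2, 0 with library totals alone, 4 with DESeq2 size factors in edgeR, 5 without the filter and 0 with a replicate block. For microglia against astrocytes in WT, the 4 lower members were 2 with library totals, 0 without the filter and 7 with the replicate block, and the 13 higher members were 5 without the filter. For neurons against astrocytes, the 10 lower members were 6 with library totals and the 14 higher members 6 without the filter. For neurons against microglia, the 7 lower members were 4 with library totals and the 9 higher members 4 without the filter. Library totals moved the median of all rows from -0.19 to -0.31 in astrocytes and from -0.11 to -0.33 in microglia. The cause of these changes was not tested.

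The correlations between KIN and WT libraries of the same number ran from -0.26 to 0.19, and whether a number marks a pair of littermates is not given in the labels. The replicate block gave 18 lower members in astrocytes and 0 in neurons, and 0 for the interaction.

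For the fold changes of named members, the call was lost under an alternative 71 times, 59 of them with 1 library left out, and no direction turned. Aside from those, E130307A14Rik-209 and Gm4117-201 lost it in microglia, and Gm47106-201, 1700082M22Rik-201 and Gm28370-201 in astrocytes. Neuronal libraries of 1211118 to 2427384 counts left 74 of 93 members with enough counts for a test, against 86 in astrocytes.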

Other observations

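Several members that the rule for named transcripts left out were chosen for mention after their values were seen. Dnm3os, opposite the dynamin gene Dnm3, is the host of Mir199a-2 and Mir214, miRNAs of mesenchymal cells. Dnm3os-201 stood at 2.79, 3.79 and 2.81 CPM in WT astrocytes, 5.14, 4.46 and 10.0 in WT microglia and 3.62, 5.30 and 5.59 in WT neurons, and it was called in no comparison. The astrocyte and microglia libraries lay closer together than for the Mir223 host, and over the 18 libraries its log2 level had correlations of 0.13 with miR-214-3p and 0.14 with miR-199a-3p. Against 9766 counts of miR-223-3p over all libraries, miR-214-3p had only 23 and miR-199a-3p only 82. With so few counts the correlations cannot show whether these 2 miRNAs follow their host. The mature sequences of these miRNAs, with the seed in capitals, are given for comparison with miR-223-3p.
miR-214-3p: aCAGCAGGcacagacaggcagt
miR-199a-3p: aCAGTAGTctgcacattggtta

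Tug1-207, of a gene known as a long noncoding RNA from the retina, and Zfas1-206, of a gene that hosts snoRNAs, were also members. GENCODE vM39 types the Tug1 gene as protein-coding, and Tug1-207 overlaps no coding gene on the other strand. Tug1-207 stood at 11.6, 4.42 and 5.08 CPM in WT and 5.30, 2.88 and 2.70 in KIN neurons, with a log2 fold change of -1.01 ± 0.54 (SE, edgeR adjusted p 0.917). Zfas1-206 stood at 1.45, 0.883 and 1.02 and 3.41, 0.823 and 2.37, with 0.91 ± 0.77 (edgeR adjusted p 0.917). Neither was called in any comparison of genotypes or of WT fractions.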
